A study of Mus musculus with 44 samples.

Results

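Replication-dependent histone genes encode the bulk of the H1, H2A, H2B, H3 and H4 proteins that package newly made DNA. Their usual mRNA has no poly(A) tail. It ends a few bases after a conserved stem-loop that is bound by the stem-loop binding protein (Slbp), and it accumulates in S phase. Cells that no longer divide draw on replication-independent histone genes with polyadenylated mRNAs, and several replication-dependent genes can also give a longer polyadenylated mRNA when transcription runs past the stem-loop. The members described here are all rows of the count table whose gene symbol in the annotation of GRCm38 begins with Hist1h, Hist2h, Hist3h or Hist4h. There are 70 of them among 55335 rows. By histone type 6 encode H1, 20 H2A, 19 H2B, 12 H3 and 13 H4, and by position 56 lie on chromosome 13, 10 on chromosome 3, 3 on chromosome 11 and 1 on chromosome 6.

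The libraries hold mRNA captured on tagged ribosomes from hippocampi of male Emx1-NuTRAP mice, in which Emx1-Cre switches on the tag, mostly in excitatory neurons and also in neural progenitors. Early-life exercise (ELE) mice had a running wheel from postnatal day 21 to 41 and sedentary mice did not, and both carried the same transgenes. In the SIT isolation the nuclei were removed first and RNA was captured from the supernatant of both hippocampi of a mouse (4 ELE and 4 sedentary libraries), while in the separate isolation RNA was captured from 1 left or 1 right hippocampus (3 ELE and 3 sedentary libraries per side). Each library carries its own mouse number, and all were made with poly(A) beads, so that an mRNA ending at its stem-loop is selected against before sequencing.

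Totals were between 45895097 and 65767802 counts per library, and 3 counts, taken as the detection floor, corresponded to between 0.045 and 0.066 CPM (counts over the library total after TMM scaling). The study compared 3 ELE with 2 sedentary SIT libraries. Those 5 are used in the tests below, and values of the other SIT mice, NT6.304, NT7.2.3 and NT7.2.4, are given beside the calls that rest on SIT libraries. The sedentary SIT libraries NT7.2.3 and NT7.2.4 stood apart. Mitochondrial genes took 8.64% and 9.64% of their counts, against 0.070% to 0.52% in the other 18 libraries, and 9 nuclear long RNAs summed to 1985 and 1947 CPM against 153 to 317 CPM. Markers of inhibitory neurons summed to 804 and 840 CPM there against 40.7 to 109 CPM elsewhere. Markers of excitatory neurons (5 genes) summed to between 9902 and 14043 CPM in all 20 libraries, while 5 markers of dividing cells summed to between 2.67 and 7.12 CPM.

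The stem-loop itself is shown first, because it marks where the non-polyadenylated mRNA ends. It was found in the annotated transcripts of 44 of the 70 members, always in the 3′ UTR, beginning between 21 and 58 bases after the stop codon (median 31). Over all 58797 protein-coding transcripts of the annotation, 54 held it (0.0918%). In the sequences below, from the GENCODE transcripts of GRCm38 with positions counted from 1, capitals mark the 16 bases of the stem-loop. They are the leading members of each histone type that hold the stem-loop, followed by 4 members that the comparisons below return to.
Hist1h1c (H1, chr13:23739507-23739532, plus strand): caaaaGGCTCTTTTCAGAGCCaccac
Hist3h2a (H2A, chr11:58955167-58955192, plus strand): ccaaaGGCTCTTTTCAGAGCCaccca
Hist3h2ba (H2B, chr11:58949344-58949369, plus strand): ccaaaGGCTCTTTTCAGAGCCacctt
Hist2h3c2 (H3, chr3:96238480-96238505, minus strand): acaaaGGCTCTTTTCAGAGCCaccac
Hist1h4i (H4, chr13:22040961-22040986, minus strand): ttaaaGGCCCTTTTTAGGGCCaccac
Hist2h4 (H4, chr3:96262934-96262959, minus strand): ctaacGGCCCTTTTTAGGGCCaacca
Hist1h4h (H4, chr13:23531453-23531478, plus strand): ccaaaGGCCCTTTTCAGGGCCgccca
Hist1h2bb (H2B, chr13:23747198-23747223, plus strand): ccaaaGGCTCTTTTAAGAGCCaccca
Hist1h3f (H3, chr13:23544927-23544952, plus strand): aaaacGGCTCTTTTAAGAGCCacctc
The form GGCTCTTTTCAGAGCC was the most frequent, in 26 of the 44 members. Both H4 genes Hist1h4i and Hist2h4 carried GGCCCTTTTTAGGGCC, which no other member had. The other 26 members had no match in any annotated transcript. For 15 of these the annotated model ends within 30 bases of the stop codon, short of the place where a stem-loop would be complete.

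Few members accounted for nearly all histone reads. Members together took between 4892 and 13025 counts per library, and their summed level was 176 ± 20.7 CPM (SD, n = 12) after separate isolation. Hist1h2bc alone gave 39.0% of the mean summed level, the 4 highest members gave 77.6% and the 12 highest gave 94.4%. In all 20 libraries 17 members were above 3 counts. At the other end, Hist1h2aa, Hist2h2bb, Hist2h3b and Hist2h3c1 were at 0 everywhere, which at these depths limits them to below the CPM of 3 counts given above. Hist2h2bb, Hist2h3b and Hist2h3c1 share every 100-base window with another gene and 2 of them overlap another gene on their strand, so reads from them could not have been assigned with certainty.

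**Figure D1:**
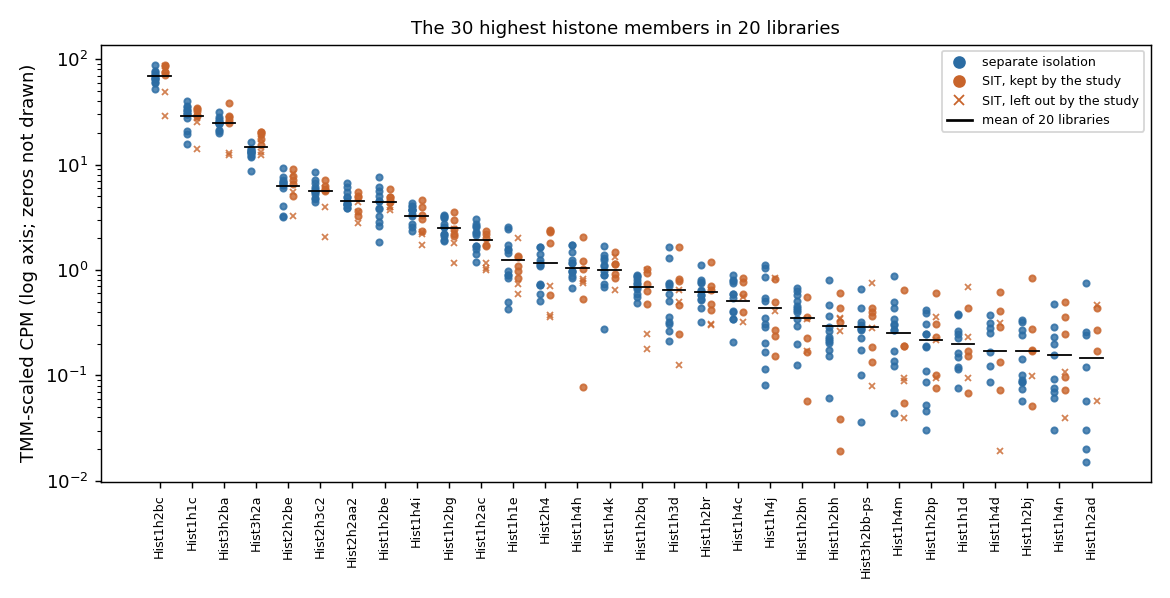
Level of the 30 highest histone members in each of 20 libraries, as TMM-scaled CPM on a log axis, with separate isolation in blue, SIT in orange (crosses where the study left a library out), the mean as a bar and zeros not drawn. Hist1h2bc leads at a mean of 69.2 CPM, and the levels fall to below 1 CPM by Hist1h4k, the 15th member.

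H2B genes led. Hist1h2bc (chromosome 13) had a mean of 69.2 CPM over the 20 libraries, with a lowest value of 28.8 CPM in NT7.2.3 and a highest of 89.1 CPM in TG7.4.1. Its annotated transcript has 2 exons and is spliced after the stop codon and holds no stem-loop. Hist3h2ba on chromosome 11 had a mean of 24.9 CPM, ranging from 12.2 CPM in NT7.2.4 to 38.4 CPM in TG7.4.1. Hist2h2be followed at 6.32 CPM, Hist1h2be at 4.41 CPM and Hist1h2bg at 2.49 CPM. The 19 H2B members made up 62.2% of the summed level.

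H1 was carried by 1 gene. Hist1h1c, which encodes the linker histone H1.2, had a mean of 29.0 CPM and 95.0% of the H1 total, and ranged from 14.1 CPM in NT7.2.3 to 40.3 CPM in TG7.3.1. Hist1h1e followed at 1.24 CPM, while Hist1h1d, Hist1h1b, Hist1h1a and the testis-type Hist1h1t were each below 0.20 CPM. Among H2A genes Hist3h2a led at 14.6 CPM, with Hist2h2aa2 at 4.53 CPM and Hist1h2ac at 1.92 CPM. Of the 20 H2A members only 12 exceeded 3 counts in any library. Hist2h2aa1, a copy of Hist2h2aa2 with which it shares all of its windows, had at most 10 counts in a library against 148 to 411 for Hist2h2aa2, and the split between these copies is uncertain.

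The core histones H3 and H4 were low. Hist2h3c2 gave 5.66 CPM and 83.7% of the H3 total, and the next H3 member, Hist1h3d, had 0.65 CPM. H4 was the most evenly spread type. Hist1h4i gave 3.26 CPM and 39.2% of the H4 total, followed by Hist2h4 (1.17 CPM), Hist1h4h (1.06 CPM) and Hist1h4k (0.99 CPM). Hist4h4, the single member on chromosome 6, had 0.11 CPM and was at 0 in 10 libraries. By type, H1 made up 17.2%, H2A 12.1%, H3 3.81% and H4 4.69% of the summed level. Per kilobase of exon, the highest mean levels were 59.8 CPM per kb for Hist1h2bc, 40.5 for Hist3h2ba and 18.6 for Hist1h1c. Then came 8.59 for Hist2h2aa2, 6.79 for Hist3h2a, 5.55 for Hist2h3c2 and 4.48 for Hist1h4i. The leading gene of a type was the same on both scales for H1, H2B, H3 and H4, whereas among H2A genes Hist2h2aa2 passed Hist3h2a, at 6.79 CPM per kb, once length was counted.

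**Figure D2:**
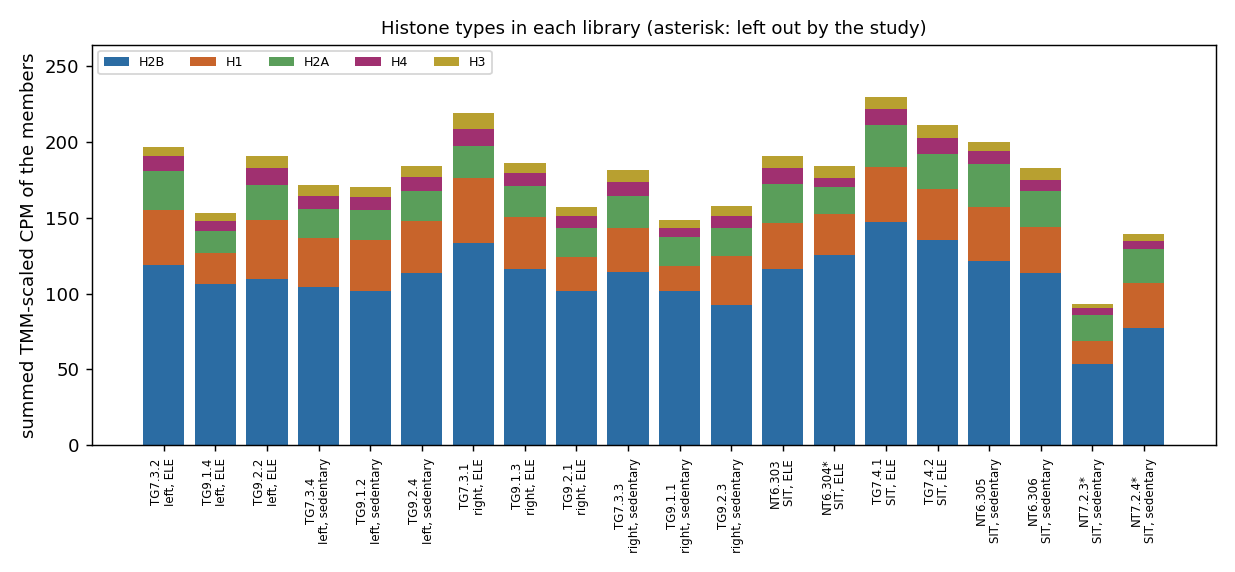
Summed TMM-scaled CPM of the members in each library, stacked by histone type, with the SIT libraries that the study left out marked by an asterisk. H2B is the largest share in every library, and the lowest total is 92.9 CPM in NT7.2.3, followed by 139 CPM in NT7.2.4.

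Levels went with the annotated 3′ end. In 22 members the transcript model runs more than 100 bases past the stem-loop (151 to 4884 bases), in 22 it ends within 74 bases of it, and 26 hold none. The median level per kilobase was 0.59 CPM per kb in the first class, 0.13 in the second and 0.077 in the third. Means of 1 CPM or more were reached by 10, 2 and 2 members of these classes. Of the 12 highest members, 9 run past the stem-loop by more than 100 bases, among them Hist1h1c by 840, Hist3h2a by 1643, Hist1h2be by 1861, Hist1h4i by 330 and Hist3h2ba by 169 bases. A poly(A) signal (AATAAA or ATTAAA in the sense strand of the transcript, in its last 40 bases) was found in 17 members against 48.7% of all protein-coding transcripts. The 17 had a median of 0.57 CPM per kb and the other 53 a median of 0.11. Exceptions ran both ways. Hist2h2aa2 ends 35 bases after its stem-loop without a signal and had 8.59 CPM per kb, while Hist4h4 runs 2445 bases past its stem-loop, has a signal and had 0.040 CPM per kb. The classes were drawn after the levels had been seen, and longer models also collect more reads, so these medians are a description.

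**Figure D3:**
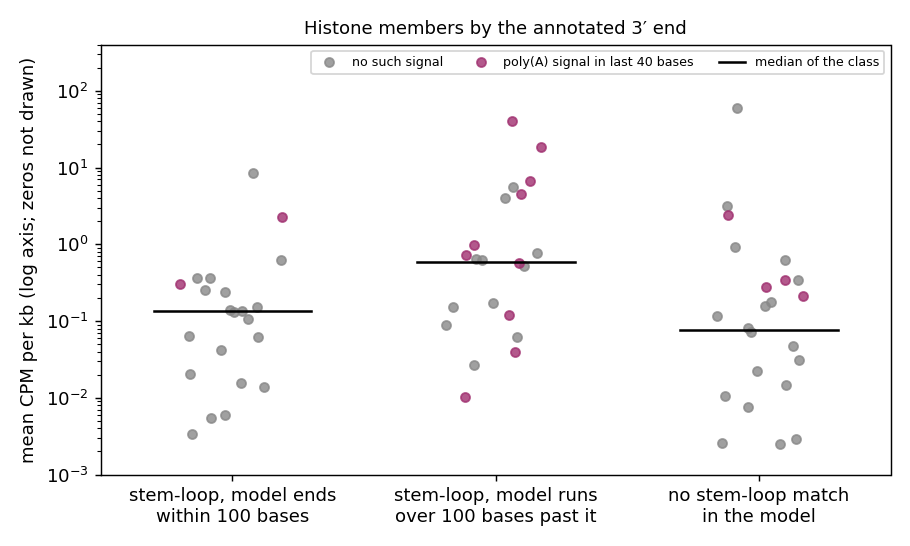
Mean level per kilobase of each member (CPM per kb on a log axis, zeros not drawn), by whether its annotated transcript ends within 100 bases of the stem-loop, runs further or holds no stem-loop, with a bar at each class median and members with a poly(A) signal in purple. The class that runs past the stem-loop has the highest median, 0.59 CPM per kb, but the highest single member, Hist1h2bc, is in the class without one.

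Listed non-coding RNAs that lack a poly(A) tail were close to absent from these libraries. Capture on ribosomes and selection on poly(A) beads cannot be told apart for them. Their values do not measure how much stem-loop histone mRNA was lost. A list of 11 such RNAs, among them Rn7sk and Rmrp, summed to between 0 and 1.74 CPM, and of 1383 annotated snRNA genes between 4 and 7 had enough counts for a test in any of the 8 comparisons below. As a sum, replication-independent histone genes were higher than the members. The 12 listed, led by H3f3b (231 CPM), H3f3a (159 CPM) and H1f0 (118 CPM), summed to between 772 and 1177 CPM. Others of them, such as H2afy (61.3 CPM), H2afj (21.3 CPM) and Cenpa (2.12 CPM), were below Hist1h2bc, and H2afx is known to give a stem-loop mRNA as well. Of the factors of stem-loop mRNA processing, Slbp averaged 14.6 CPM, Lsm11 56.4 CPM and Npat 11.4 CPM, each above 3 counts in all 20 libraries, while Zfp473 averaged 0.40 CPM and was above 3 counts in 17. The 18 S-phase genes summed to between 93.8 and 125 CPM and ranged from Cdk1 at 0.37 CPM to Pcna at 23.9 CPM, with Mki67 at 1.51 CPM and Mcm6 at 18.2 CPM.

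Among the 12 separately isolated libraries, several members were high or low in the same mice. TG9.1.1, a sedentary right hippocampus, had the lowest value for 6 of the 12 leading members. TG7.3.1, an ELE right hippocampus, was highest for 5 and TG7.3.2, an ELE left hippocampus, for 4. Hist1h1c was 15.7 CPM in TG9.1.1, 19.5 CPM in TG9.1.4 and 20.7 CPM in TG9.2.1, and between 28.0 and 40.3 CPM in the other 9. Hist2h2be followed the same split, at 3.22, 3.27 and 4.09 CPM in those mice against 6.07 to 9.37 CPM. Hist1h2be was also lowest there, at 1.83, 2.87 and 2.60 CPM. Those libraries belong to 3 different groups, but TG9.1.1 and TG9.1.4 share the mouse number series TG9.1. Over all genes their deviations from the group means correlated at 0.38, the highest of any pair. TG9.1.2 and TG9.1.3 of that series were not among the low libraries. The high libraries TG7.3.1 and TG7.3.2 share the series TG7.3. Hist3h2ba did the reverse in part, with its highest separate value, 31.4 CPM, in TG9.1.1.

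**Figure D4:**
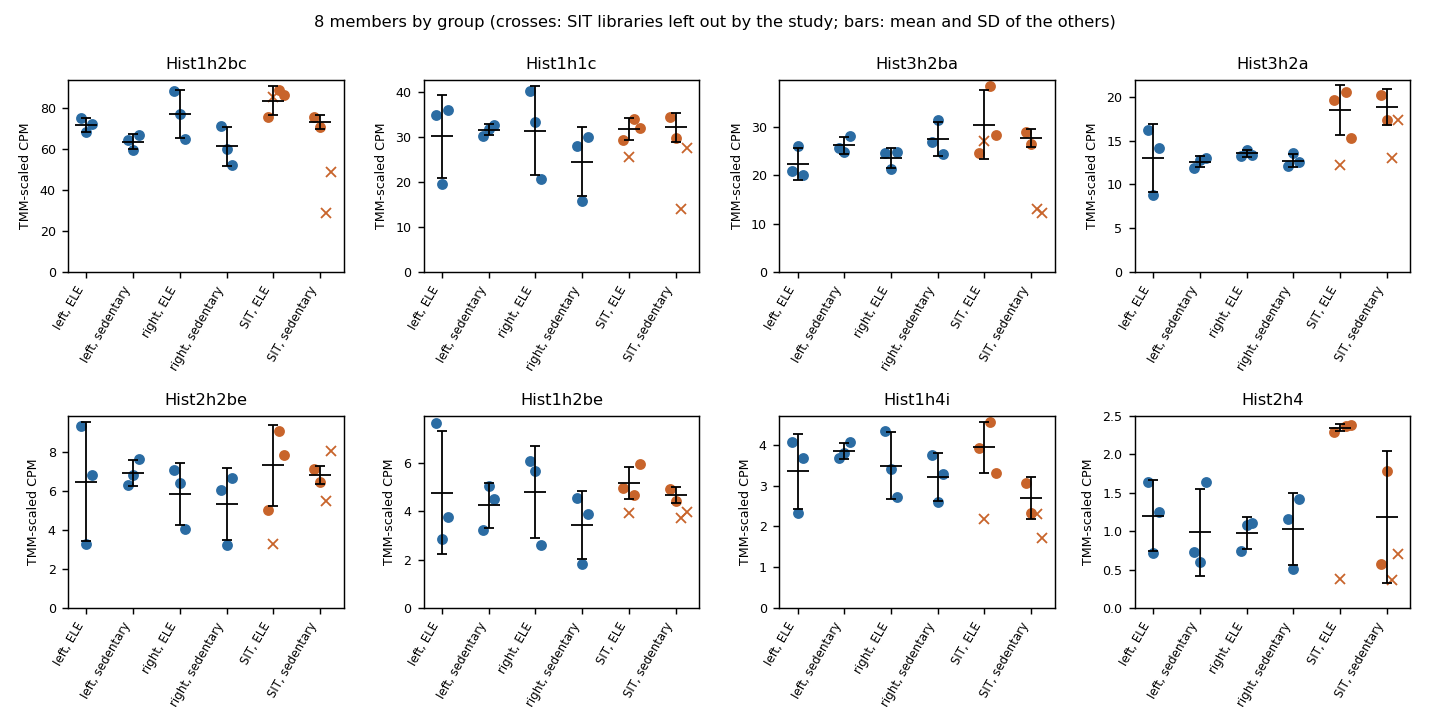
TMM-scaled CPM of 8 members in each library, by side or SIT and by exercise, with the mean and SD of the libraries used in the tests and crosses for those left out by the study. Hist1h2bc in left ELE mice lies above left sedentary mice, though it was not called there. Hist2h4 in the 3 tested SIT ELE libraries lies at 2.29 to 2.39 CPM, above all separate libraries.

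The isolations were compared to ask whether taking the nuclei out first changed what was captured. Isolation, amount of tissue, mice and library preparation cannot be told apart here. Calls follow the study's rule of an unadjusted p below 0.05 together with a log2 fold change beyond 0.39 in either direction (edgeR's quasi-likelihood test), and adjusted p-values are over all genes tested. In sedentary mice 2 of the 32 members tested were higher in SIT libraries, against 5.52% of 18911 genes, and 2 were lower, against 9.97%. In ELE mice 3 of 35 were higher, against 4.17% of 18478 genes, and 0 were lower, against 8.64%. DESeq2 also called 0 lower there. At an adjusted p under 0.05 in edgeR 1 of 32 members passed in sedentary mice, against 2565 of 18911 genes. In ELE mice 1 of 35 passed, against 1719 of 18478 genes. The median log2 fold change of the members was 0.17 in sedentary and 0.20 in ELE mice, and that of all genes tested was -0.01 and -0.02. The sedentary SIT and separate libraries are not those of the ELE comparison, so these are separate sets of mice. Summed over the members, the 5 SIT libraries had 203 ± 18.4 CPM (SD, n = 5) and the 12 separate ones 176 ± 20.7 CPM (SD, n = 12), and the ranges of 183 to 230 CPM and 148 to 219 CPM overlap. In bulk samples, fewer cells of a type and less RNA per cell cannot be told apart.

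Hist3h2a was higher after SIT in both. In sedentary mice it was 20.2 and 17.4 CPM in the 2 SIT libraries and between 11.9 and 13.6 CPM in the 6 separate ones, with no overlap. The log2 fold change was 0.58 with a standard error (SE) of 0.11 and an adjusted p of 0.0047 in edgeR. In ELE mice the SIT values were 19.6, 20.6 and 15.2 CPM against 8.73 to 16.2 CPM, which overlap, with a log2 fold change of 0.47 (SE 0.17, adjusted p = 0.11 in edgeR). The SIT libraries left out by the study had 12.2 CPM (NT6.304), 13.0 CPM (NT7.2.3) and 17.4 CPM (NT7.2.4). With NT6.304 included the ELE difference was 0.35 on the log2 scale and was not called. Leaving out TG9.1.4, NT6.303 or TG7.4.1 ended the ELE call too, at 0.38, 0.43 and 0.39, and so did a comparison with left hippocampi alone, at 0.51. A 33.0% share of the Hist3h2a exons is also annotated as Trim17 on the same strand.

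Hist2h4 and Hist3h2ba were higher after SIT in ELE mice. Hist2h4, an H4 gene, was 2.29, 2.37 and 2.39 CPM in the SIT libraries and between 0.72 and 1.64 CPM in the separate ones, without overlap. The log2 fold change was 1.10 (SE 0.31, adjusted p = 0.043 in edgeR). The fourth SIT ELE mouse, NT6.304, had 0.37 CPM, and with it included the difference fell to 0.76 and was not called. NT7.2.3 and NT7.2.4 had 0.36 and 0.70 CPM. Of the sedentary SIT mice NT6.305 had 0.57 CPM, within the range of 0.51 to 1.64 CPM of the separate libraries, and NT6.306 had 1.79 CPM, above it. Hist3h2ba, an H2B gene, was 24.6, 38.4 and 28.3 CPM against 19.9 to 26.1 CPM, with a log2 fold change of 0.41 (SE 0.14, adjusted p = 0.078 in edgeR). Its ranges overlap, and without TG7.4.1 the log2 fold change was 0.21, and without TG9.2.2 it was 0.38, below the threshold in both cases. It was not called against right hippocampi alone (0.38) or with NT6.304 included (0.37). NT6.304 had 27.0 CPM, NT7.2.3 13.0 CPM and NT7.2.4 12.2 CPM.

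The other isolation calls, all in sedentary mice, rested on low counts, and each of the 3 passed the filter only through the group where it is high. Hist1h4h had 28 and 4 counts in the SIT libraries against 39 to 99 in the separate ones, a ratio of 0.27 by summed counts (95% exact interval 0.18 to 0.38, counting error only). Its log2 fold change was -1.88 (SE 0.62, adjusted p = 0.066 in edgeR), without NT6.306 it was -1.08 and not called, and without NT6.305 it was -3.84 and called. Hist1h2bh had 2 and 1 counts against 7 to 27, a ratio of 0.11 (interval 0.023 to 0.34), and without NT6.306 it was not called at a log2 fold change of -2.65. Hist1h2ai had 12 and 11 counts in the SIT libraries against 4 in TG9.2.4 and 0 in the other 5 separate libraries, a ratio of 17.6 (interval 6.02 to 70.1). Without NT6.305 it was not called at a log2 fold change of 3.89, and without TG9.2.4 it was called at 6.55. Against right hippocampi alone Hist1h4h (-1.68) and Hist1h2bh (-2.81) were not called, and against left ones Hist1h2ai (3.12) was not. With all SIT libraries Hist1h4h (-1.05) and Hist1h2bh (-0.57) were not called and Hist1h2ai had too few counts for a test. It shares 88.4% of its windows with other genes. The sedentary mice that the study left out had 40 and 44 counts of Hist1h4h, 14 and 19 of Hist1h2bh, and 0 and 0 of Hist1h2ai. In ELE mice the ratios of SIT to separate libraries by summed counts lay on the other side of 1 for all 3. They were 1.25 (interval 1.06 to 1.47) for Hist1h4h, 1.51 (interval 1.11 to 2.04) for Hist1h2bh and 0.40 (interval 0.10 to 1.18) for Hist1h2ai, with 4 counts in SIT and 21 in separate libraries. Their ranges over ELE libraries overlap, Hist1h4h and Hist1h2bh were not called there, and Hist1h2ai had too few counts for a test. The difference between ELE and sedentary mice was not tested.

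Other gene groups moved with the isolation, and their part in the histone values was not tested. All 19 mitochondrial genes tested were higher in SIT libraries in both comparisons, with a median log2 fold change of 2.19 in sedentary and 2.46 in ELE mice. Astrocyte markers were lower, 5 of 5 in sedentary and 4 of 5 in ELE mice. Inhibitory neuron markers were higher in sedentary mice (6 of 6) and 0 of 6 were called in ELE mice. Of 9 nuclear long RNAs, 1 was higher and 1 lower in sedentary mice and none were called in ELE mice. Of 11 replication-independent histone genes tested, 2 were higher in sedentary and 1 in ELE mice. S-phase genes were lower for 4 of 18 in ELE mice, and 2 were lower and 1 higher in sedentary mice.

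Exercise was compared first in the SIT libraries. Of 36 members tested 4 were higher in ELE mice, against 1.54% of 18238 genes, and 0 were lower, against 2.11%. None passed an adjusted p under 0.05, and no gene of the table did. DESeq2 called 6 higher, against 340 of 18238 genes, and 0 lower, against 370. The median log2 fold change was 0.12 for the members and 0.00 for all genes. The 4 were Hist1h4h, Hist1h3f, Hist1h2bb and Hist1h2bh, and each had at most 109 counts in a library. All 4 passed the filter on low counts, which asked for 2 libraries, only through the ELE group where they are high. Of the sedentary libraries 1 reached the cutoff for Hist1h4h and 0 for the other three, so the count of 4 against the share of all genes is a description.

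Hist1h4h was 1.21, 1.03 and 2.08 CPM in ELE and 0.54 and 0.077 CPM in sedentary SIT libraries, a log2 fold change of 2.22 (SE 0.84, adjusted p = 0.90 in edgeR). The 12 separate libraries lay between 0.68 and 1.73 CPM, above NT6.305 and NT6.306. The left-out SIT mice had 0.83 CPM (NT6.304, ELE), 0.76 CPM (NT7.2.3, sedentary) and 0.79 CPM (NT7.2.4, sedentary). Without NT6.306 the log2 fold change was 1.42 and without TG7.4.2 it was 1.85, and neither was called, while without NT6.305 it was 4.18 and was called. Hist1h3f had 15, 10 and 27 counts in ELE mice and 0 in both sedentary mice, which is at least 5.45-fold higher when 3 counts are set for each sedentary library. Hist1h2bb had 12, 6 and 14 counts against 0 and 0, at least 3.35-fold higher by the same floor. Hist1h2bh had 36, 24 and 17 counts against 2 and 1, a ratio of 16.1 (95% exact interval 5.32 to 79.9). Hist1h3f and Hist1h2bb had too few counts for a test without NT6.303 or without TG7.4.2, and Hist1h2bb was not called without the filter (6.40). Without NT6.305 or without NT6.306 none of these last 3 was called. Those fits keep 1 sedentary library, which is assumed to vary like the other group. NT6 is the mouse number series found in both groups. Among its 4 mice, NT6.304 included, Hist1h2bb (6.63) and Hist1h2bh (3.95) were called higher and Hist1h2ai lower (-6.58). That is 2 higher and 1 lower of 28 members, against 636 of 17738 genes higher and 543 lower. Each of the 3 passed the filter only through the group where it is high, and Hist1h2ai had 12 and 11 counts in sedentary mice against 0. In that fit Hist1h4h (1.71) was not called and Hist1h3f had too few counts. With the series as a block in the 5-library fit, an alternative chosen after seeing the data, exercise rests on NT6.303 alone against NT6.305 and NT6.306, and a lone ELE mouse is assumed to vary like the rest. There Hist1h2bh (4.30) was called, and Hist1h4h (1.97), Hist1h2bb (6.48) and Hist1h3f (6.79) were not. Without NT6.305 and without NT6.306 the edgeR log2 fold changes were 7.12 both times for Hist1h3f, 6.42 both times for Hist1h2bb, and 4.42 and 3.51 for Hist1h2bh. NT6.304, the ELE mouse left out by the study, had 0 counts of Hist1h3f, 13 of Hist1h2bb and 18 of Hist1h2bh. In NT7.2.3 and NT7.2.4 those genes had 0 and 8, 1 and 0, and 14 and 19 counts. With all 8 SIT libraries Hist1h4h (1.24) and Hist1h2bh (1.36) were not called and Hist1h3f and Hist1h2bb had too few counts for a test. Then 2 other members were called higher, Hist1h2bc at 0.58 and Hist1h3d at 1.54 on the log2 scale. That is 2 of 26 members tested, against 402 of 17531 genes, and 0 were lower, against 948 genes. Hist1h3d was named after its values were seen, and the low Hist1h2bc values of 28.8 and 48.8 CPM are those of NT7.2.3 and NT7.2.4.

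In the left hippocampus 0 of 26 members were called higher, against 1.1% of 17750 genes, and 0 lower, against 0.963%. DESeq2 called 0 as well, and no member reached an unadjusted p of 0.05 in edgeR. Hist1h2bc was 75.4, 68.4 and 72.2 CPM in left ELE mice and 64.5, 59.8 and 67.0 CPM in left sedentary mice, without overlap. Its log2 fold change of 0.18 was not called (SE 0.084, adjusted p = 0.96 in edgeR). The share of all genes without overlap was not counted. In the right hippocampus 0 of 29 members were higher, against 0.746% of 17570 genes, and 0 lower, against 1.23%, and DESeq2 again called 0. There Hist1h2bc was the 1 member with an unadjusted p under 0.05, at 88.7, 77.2 and 65.3 CPM in ELE and 71.5, 60.4 and 52.3 CPM in sedentary mice, which overlap. Its log2 fold change of 0.33 was below the threshold (SE 0.14), and it passed without TG9.2.1 (0.43) or without TG7.3.3 (0.46).

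Over the 12 separate libraries, with side in the model, 0 of 29 members were higher in ELE mice, against 0.771% of 18283 genes, and 1 was lower, against 1.2%. DESeq2 called the same numbers of members, against 167 of 18283 genes higher and 265 lower. Hist1h2bc, the most abundant member, was between 65.3 and 88.7 CPM (median 73.8) in ELE and between 52.3 and 71.5 CPM (median 62.5) in sedentary mice. Its log2 fold change of 0.25 (SE 0.087, adjusted p = 0.90 in edgeR) did not pass the fold threshold, and it lay between 0.20 and 0.30 when any 1 library was left out. Hist3h2ba went the other way, between 19.9 and 26.1 CPM in ELE and between 24.5 and 31.4 CPM in sedentary mice, at -0.23 (SE 0.084, adjusted p = 0.90 in edgeR). Both are H2B genes, and they had unadjusted p-values of 0.011 and 0.016. The called member was Hist1h4d, which had 14 counts in the ELE mouse TG7.3.1 and 0 in the other 5 ELE mice, against 5 to 18 in the 6 sedentary mice. Its log2 fold change was -2.73 (SE 1.12, adjusted p = 0.91 in edgeR), and its ratio by summed counts was 0.19 (95% exact interval 0.097 to 0.34). Leaving out TG7.3.2, TG9.1.4, TG9.2.2, TG7.3.4 or TG7.3.3 ended the call, at -2.45, -2.50, -2.48, -2.50 and -2.86. Without TG7.3.1, the ELE mouse with counts, it was called at -6.59. In the SIT libraries Hist1h4d had 24, 4 and 15 counts in ELE and 32 and 7 in sedentary mice. Summed over the members, ELE mice had 184 ± 25.0 CPM (SD, n = 6), and sedentary mice had 169 ± 13.8 CPM (SD, n = 6).

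Left and right were compared over the same 12 libraries, with exercise in the model. No member was called, 0 of 29 higher on the left against 0.678% of 18283 genes and 0 lower against 0.459%. None reached an unadjusted p of 0.05 in edgeR. DESeq2 called 1 higher, the H4 gene Hist1h4m at 1.16 on the log2 scale, against 160 of 18283 genes. Hist1h2ad, an H2A gene, was too low for the edgeR test but differed in its counts. It had 1, 3, 43, 7, 14 and 14 counts in the 6 left libraries and 1, 2, 0, 0, 0 and 0 in the 6 right ones. Without the filter on low counts its log2 fold change was 4.67 and it was called. It shares 63.6% of its windows with other H2A genes. The summed level was 178 ± 15.8 CPM (SD, n = 6) on the left and 175 ± 26.3 CPM (SD, n = 6) on the right. The exercise effect was then compared between sides. Of 31 members tested 0 had a larger effect on the left, against 1.35% of 18810 genes, and 0 a smaller one, against 0.856%. None reached an unadjusted p of 0.05 in edgeR, and DESeq2 called 0.

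**Figure D5:**
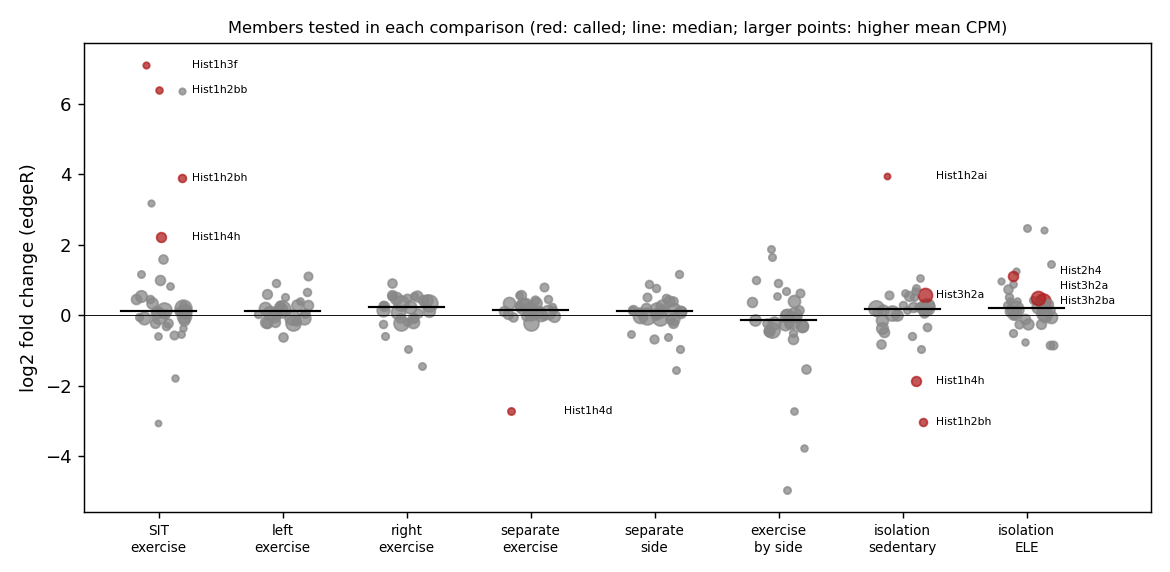
Log2 fold change (edgeR) of every member tested in each of 8 comparisons, ELE against sedentary, left against right or SIT against separate, with called members in red, the median as a line and larger points for higher mean CPM. The called members of the exercise comparisons are small points, of low mean CPM, while Hist3h2a and Hist3h2ba in the isolation comparisons are large ones.

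Other gene lists were compared with exercise in the same fits. Replication-independent histone genes had 0 of 11 called in the SIT, left, right and 12-library exercise comparisons, with median log2 fold changes of -0.06, -0.04, -0.01 and 0.02. The 13 processing and turnover genes tested had 0 called in each, Slbp among them. Of 18 S-phase genes 1 was lower in SIT ELE mice, and 1 was higher in ELE mice on the left, on the right and over the 12 libraries. Choroid plexus markers summed to between 2.63 and 1212 CPM in the 20 libraries and were lower in ELE mice for 2 of 4 in SIT, 3 of 3 on the right and 1 of 4 over the 12 libraries. Their median log2 fold change was -0.99 in SIT, -0.96 on the left, -3.44 on the right and -2.33 over the 12 libraries. In SIT ELE mice 1 of 6 inhibitory neuron markers and 1 of 2 markers of oligodendrocyte precursors were also lower. On the right 1 of 6 inhibitory markers was higher, and 1 of 4 microglial and 1 of 3 endothelial markers were lower. The part of these lists in the histone values was not tested.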

How the data were processed

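The count table holds TRAP-seq of 20 libraries, 1 per mouse. The authors checked reads with FastQC 0.11.9, aligned them to GRCm38 with STAR 2.7.3a, removed duplicates with Picard 1.87, counted fragments on exons by strand, and deposited the unnormalized counts for each gene. Mouse numbers in the headers were assigned to groups through the study's sample list. The study's own SIT libraries were identified as 1 of 24 subsets, the one whose mean normalized counts equal those listed for all 633 genes within 0.0001. A wild-type table was not used because its 24 columns matched no labels. IDs were matched to GENCODE (54587 of 55335 with version, 55154 without).

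Counts were fitted with edgeR 4.0.16 in R 4.3.3 (TMM, filterByExpr with a minimum count of 10, quasi-likelihood test, Benjamini-Hochberg over all genes), fitting only the groups compared. The SE is the log2 fold change over the square root of F. Levels use TMM over all 20 libraries. Alternatives were DESeq2 1.42.0, median-of-ratios factors, no filter, other libraries, other scalings and a replicate block. The steps were tested on simulated data. Intervals are exact (Clopper-Pearson, 95%) and cover counting error only. Replicates were compared in 24 pairs, and in each the counts varied beyond sampling noise (chi-square per gene 20.2 to 463).

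Named were the 12 members of highest mean CPM, called members (up to 5 per comparison), the highest of each histone type by CPM and by CPM per kb, and 9 members known to give polyadenylated mRNA. Hist1h3d, Hist1h4c, Hist1h4k, Hist1h4m, Hist1h2ad, the lower H1 genes and members at 0 were named after their values were seen. The members and lists were chosen with earlier results of these data known. A read spanning overlapping genes or near-identical copies may not have been counted.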

Additional observations from a re-analysis of the deposited data

Results flagged for a closer look

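Values were screened in the SIT groups of 4 libraries, all libraries included, and 6 of 54 values had 1 library whose gap to the nearest other exceeded the 95% limit of Dixon's test for 4 values. Chance flags about 1 in 20, a rate that does not hold where the other 3 libraries are at 0, as for 3 of the 6. In SIT ELE mice NT6.304 was low for Hist2h4, at 0.373 CPM against 2.29 to 2.39 CPM, and for the summed H4 genes, at 6.15 CPM against 10.5 to 10.9 CPM. In the same group Hist4h4 was high in TG7.4.2 at 0.343 CPM and Hist1h2ai was high in TG7.4.1 at 0.0734 CPM. In sedentary SIT mice Hist1h2bb was above 0 in NT7.2.3 alone, at 0.0190 CPM, which is 1 count, and Hist1h3f in NT7.2.4 alone, at 0.143 CPM, which is 8 counts. NT6.304, NT7.2.3 and NT7.2.4 are the mice that the study left out.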

How the results depend on the processing

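Counts of called members changed by more than 1.5 times under the following alternatives. With an adjusted p under 0.05 as the rule they were 0 of 36 members tested for SIT exercise, against 0 of 18238 genes. For the 12-library exercise comparison they were 0 of 29, against 1 of 18283 genes. For isolation they were 1 of 32 in sedentary mice (Hist3h2a), against 2565 of 18911 genes. In ELE mice they were 1 of 35 (Hist2h4), against 1719 of 18478 genes. With all SIT libraries they were 2 of 26 members tested for SIT exercise, both higher. Of 17531 genes 402 were then called higher and 948 lower. For isolation they were 2 of 27 in sedentary mice, 1 higher and 1 lower, against 1582 of 18086 genes higher and 1290 lower. In ELE mice they were 0 of 31, against 662 of 17943 genes higher and 1291 lower. SIT against right hippocampi alone gave 2 of 30 in sedentary mice, both higher, against 936 of 18137 genes higher and 1610 lower. Without the filter on low counts they were 1 of 58 for left exercise, lower, against 282 of 27142 genes. For right exercise they were 1 of 60, higher, against 247 of 26947 genes. For side they were 2 of 63, 1 in each direction, against 373 of 29378 genes higher and 290 lower. For exercise by side they were 2 of 63, 1 in each direction, against 696 higher and 345 lower. DESeq2 gave 1 of 29 for side, higher, against 160 of 18283 genes. Leaving out 1 library gave between 1 and 5 calls for SIT exercise, 0 and 1 for left, 0 and 4 for right and 0 and 3 for the 12-library exercise comparison. It gave between 0 and 4 for side, 0 and 2 for exercise by side, 3 and 5 for isolation in sedentary mice and 2 and 5 for isolation in ELE mice. For SIT exercise 2 were called without NT6.303, NT6.306 or TG7.4.2 and 1 without NT6.305. Right exercise had 4 without TG9.2.1, the 12-library exercise comparison 3 without TG9.2.4 and isolation in ELE mice 5 without TG7.3.1. For side 4 were called without TG9.1.4 and 3 without TG7.3.1 or TG9.2.3. The log2 fold change of Hist1h2bc for isolation in sedentary mice turned to -0.14 with all SIT libraries. The mean summed level of the SIT libraries was 179 CPM over all 8 against 203 CPM over 5. Other scalings, and members with mostly unique windows alone, moved the mean summed level of the 12 separate and of the 5 SIT libraries by less than 1 SD. With the latter, sedentary mice fell by more than 1 SD, from 169 to 155 CPM in the separate and from 191 to 176 CPM in the 2 SIT libraries. The causes were not tested.

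Whether the mouse number series (TG7.3, TG9.1, TG9.2) pairs the separate libraries is not settled, since each group holds 3 libraries. Deviations from the group means correlated above 0.1 in 3 of 18 pairs of the same series (median r 0.0062). They did so in 3 of 36 pairs of different series (median r 0.011). The highest r was 0.38 within a series, for TG9.1.4 with TG9.1.1, and 0.19 between series. With that series as a replicate block, 1 of 31 members tested was called for side, against 126 of 18810 genes called higher. It was Hist1h2ad, higher on the left at 4.22, which was not tested without the block. Hist1h2ad passed the filter only through the left libraries where it is high, since no right library had more than 2 counts. The number of calls was unchanged in the other 4 comparisons of these libraries. For SIT exercise the columns carry no replicate number of the labels. With the mouse number series as a replicate block, chosen after seeing the data, 2 members were called, Hist1h2bh and Hist1h4c, the latter lower at -7.76. The ELE arm of that contrast is 1 mouse, NT6.303, which had 0 counts of Hist1h4c against 46 and 40 in the other tested ELE mice and 31 and 21 in the sedentary ones. In the isolation comparisons the series and the isolation cannot be told apart. Low counts limit what can be seen, since 17 of the 70 members exceeded 3 counts in every library.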
